A study of Mus musculus with 18 samples.

Results

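The genes described here are 8 factors at the core of the pluripotency network of mouse embryonic stem (mES) cells: *Pou5f1*, *Sox2*, *Nanog*, *Sall4*, *Utf1*, *Lin28a*, *Dppa4* and *Dppa5a*. They were chosen by name, as the rows of the deposited count files whose Ensembl identifier carries these symbols in GENCODE M21, and they are 8 of the 54446 genes in those files. The study fed WT and *Tet2*-KO mES cells 5-ethynyl uridine (EU, 1 mM), a uridine analogue that enters newly made RNA, during 10, 20 or 40 min, and sequenced the RNA pulled down through it. There were 3 libraries in each of 6 groups (2 genotypes at 3 labelling times), 18 in all. The first genotype is labelled wildtype and the other Tet2 knockout (Tet2-/-), with no description of the allele in the sources used here. All cells grew in medium with serum, LIF and the inhibitors CHIR99021 and PD0325901, on gelatin after passages to remove feeder cells, and all libraries received EU. The methods name 1 WT and 1 knockout line and 3 dishes for each condition. A difference between the lines and the loss of *Tet2* therefore cannot be told apart. P-values measure the spread between dishes, and those per read of the spike-in RNA are smaller than that spread warrants (explained with that scale).

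In background, pluripotent cells hold their state by a small set of transcription factors that bind together at enhancers and at each other's genes. *Pou5f1* encodes OCT4, a POU-domain factor, and *Sox2* its HMG-box partner, and the pair binds a composite DNA element in which both recognition sequences lie side by side. *Nanog* encodes a homeodomain factor that stabilizes the naive state, and *Sall4* a zinc-finger factor of the same network. *Utf1* encodes a chromatin-associated protein of undifferentiated cells. *Lin28a* encodes an RNA-binding protein that blocks the maturation of let-7 microRNAs, *Dppa4* a SAP-domain protein of developmental gene promoters, and *Dppa5a* a small KH-domain RNA-binding protein.

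The libraries held 17931614 to 23069143 reads on genes and 44162 to 512186 reads on the 92 ERCC transcripts, RNA standards added in proportion to each sample's total RNA. Every pair of replicates differed by more than counting noise (mean chi-square per gene 1.66 to 5.53 over 18 pairs). The targeted gene, *Tet2*, took 589.0 to 740.9 CPM (reads per 1000000 gene reads, the unit of a share below) in the 9 WT libraries (median 685.8) and 529.7 to 643.4 in the 9 *Tet2*-KO libraries (median 585.2). These ranges overlap, and because reads were counted over the whole gene and the deleted part is not given in the sources used here, this count does not check the genotype labels. The pluripotent identity was checked on partner genes outside the 8: *Esrrb*, *Klf2*, *Klf4*, *Tfcp2l1*, *Zfp42* and *Nr0b1* were all read in both genotypes, from a mean of 251.44 reads for *Nr0b1* in *Tet2*-KO to 20968.44 reads for *Tfcp2l1* in WT. Being read does not make the genotypes equal, as each of these markers had a lower share in *Tet2*-KO. Log2 fold changes were -0.06 for *Esrrb*, -0.42 for *Nr0b1*, -0.47 for *Tfcp2l1*, -0.60 for *Klf2*, -0.64 for *Klf4* and -2.25 for *Zfp42*. Per ERCC read, only *Zfp42* of these was lower (-1.52). These markers belong to a list of 18 partner factors, of which 6 were higher in share in *Tet2*-KO and 12 lower. *Tbx3* (0.29) and *Prdm14* (0.26) were among the higher ones, so the fall of the markers named here does not stand for the whole list. Markers of other lineages summed to far less than the partner genes (given with the lists of related genes). That contrast is rough, as the sums cover 18 partner genes but 10 genes per other list and were not divided by gene length.

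The promoter sequences of 4 of the genes are shown because the members' promoters differ in the elements for which the network is known. RefSeq promoter windows on GRCm38.p6 were found for 5 of the 8 genes (*Pou5f1*, *Sox2*, *Nanog*, *Utf1* and *Lin28a*), with a second start for *Pou5f1* and for *Nanog*. Values below are for the first start unless the second is named. The 250 bases before each start were searched on both strands for the octamer ATGCAAAT, the Sox core ACAATG, a Sox-Oct composite (TTTGCAT, then N, then ACAA), the TATA box TATAAA and the GC box GGGCGG. A match is only a match of letters, and the ACAATG of *Nanog* overlaps its composite. Each run below ends at the base before the GENCODE gene start, reads 5′ to 3′ on the gene's strand, and has the matched letters in capitals.
Nanog, chr6:122707239-122707488, plus strand: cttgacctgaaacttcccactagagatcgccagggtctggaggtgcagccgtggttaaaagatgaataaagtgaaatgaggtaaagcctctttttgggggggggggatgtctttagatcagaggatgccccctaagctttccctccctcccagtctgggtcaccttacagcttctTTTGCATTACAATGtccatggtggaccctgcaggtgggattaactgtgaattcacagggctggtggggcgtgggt
Lin28a, chr4:134018842-134019066, minus strand: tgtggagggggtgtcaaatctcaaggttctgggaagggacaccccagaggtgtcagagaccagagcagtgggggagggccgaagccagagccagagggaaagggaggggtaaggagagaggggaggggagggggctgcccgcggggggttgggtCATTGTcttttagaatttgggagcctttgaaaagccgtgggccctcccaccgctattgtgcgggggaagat
Pou5f1, chr17:35505782-35506017, plus strand: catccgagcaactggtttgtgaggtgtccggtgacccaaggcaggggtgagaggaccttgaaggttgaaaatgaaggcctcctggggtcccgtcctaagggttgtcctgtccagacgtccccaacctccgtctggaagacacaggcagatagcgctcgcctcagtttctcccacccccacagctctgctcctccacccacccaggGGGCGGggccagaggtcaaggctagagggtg
Utf1, chr7:139943606-139943788, plus strand: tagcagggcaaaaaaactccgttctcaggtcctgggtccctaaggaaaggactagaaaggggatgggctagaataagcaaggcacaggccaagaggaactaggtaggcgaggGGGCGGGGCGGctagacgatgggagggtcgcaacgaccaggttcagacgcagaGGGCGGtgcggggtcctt

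The *Nanog* window held the composite element, beginning 75 bases before the start. Of 32851 mouse promoter windows of the same length, 11 held these letters (0.0335%), against 10.7% with the Sox core. The window of *Lin28a* held the Sox core on the opposite strand, 96 bases before the RefSeq start, and no composite. *Pou5f1* held 1 GC box, *Sox2* 2 and *Utf1* 4 within the 250 bases, an element found in 32.7% of windows. Not all matches of *Utf1* lie in its printed run, which stops at the GENCODE gene start, before the RefSeq start. The second start of *Pou5f1*, inside the gene, had no GC box and a Sox core 158 bases before it, and the second start of *Nanog* had the same composite, 151 bases before it. The octamer (1.60% of windows) and the TATA box (12.4%) were in none of the windows of the 5 genes. GC content was 72.0% for *Sox2*, 62.0% for *Pou5f1* (45.6% at its second start), 61.6% for *Utf1*, 61.2% for *Lin28a* and 52.0% for *Nanog* (57.6% at its second start), beside a median of 52.4% over all windows. The ratio of observed to expected CpG was lowest for *Nanog* (0.182, and 0.104 at its second start, against a median of 0.374) and highest for *Sox2* (0.833).

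*Sox2* could not be read from these counts. It had 0 reads in all 18 libraries, where 3 reads would have been 0.00822 CPM. The gene (chr3:34650405-34652461 on mm10, plus strand, a single exon of 2057 bases) lies wholly inside an intron of *Sox2ot*, a long noncoding gene of the same strand (chr3:34104270-34682619). Of 243 protein-coding genes that lie in introns of a gene on the same strand, 238 had 0 reads in all libraries (97.9%), compared with 93 of 821 inside a gene on the opposite strand (11.3%) and 1766 of 20638 in no other gene (8.56%). Reads were therefore counted over whole gene spans and by strand, and those in 2 genes of the same strand were dropped. A count of 0 here says nothing about transcription of *Sox2*. *Sox2ot* itself, whose count leaves out the interval of *Sox2*, had 1828 to 3311 reads per library. Its share of gene reads was 0.08 higher in *Tet2*-KO on the log2 scale (SE 0.03, adjusted p = 0.0113), and per ERCC read it was 0.82 higher (adjusted p = 1.33e-42). The other 7 genes passed the filter on low counts through their levels in all 6 groups.

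Their positions on mm10 set how each was counted, since intron reads entered with exon reads. *Pou5f1* lies at chr17:35506018-35510772 (plus strand, 47.3% of the span in exons), *Nanog* at chr6:122707489-122714633 (plus, 31.4%) and *Sall4* at chr2:168748332-168767943 (minus, 28.2%). *Utf1* is at chr7:139943789-139945112 (plus, 92.7%), *Lin28a* at chr4:134003330-134018841 (minus, 25.8%), *Dppa4* at chr16:48283733-48294237 (plus, 15.8%) and *Dppa5a* at chr9:78367052-78368177 (minus, 55.0%). Genes on the opposite strand overlap *Pou5f1* (*Gm19553*, 10 to 49 reads), *Sall4* (*Gm14261*, 6 to 25 reads) and *Lin28a* (*Gm13061*, 0 to 9 reads). Transcripts with at least 90% identity over at least 200 bases were found for 5 of the 7. *Dppa4* matched 2 pseudogenes, of which *Gm14058* (98.9% over 735 bases) had a mean of 16.28 reads, and *Dppa5a* matched 8 pseudogenes with at most 1.33 reads and a transcript of *Pigp* with 88.17 reads. The 52 matches of *Nanog* were at most 245 bases long. Reads without a unique alignment (5.24% to 5.99% of a library) were set apart and counted on no gene. The counts of *Nanog*, *Dppa4* and *Dppa5a* therefore lack such reads where they fitted a copy equally well, in a number not known here.

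Levels were ordered by CPM per kilobase of gene span. In WT, *Dppa5a* (median 49.8 over 9 libraries) and *Nanog* (43.4) overlapped at the top, above 99.4% and 99.3% of 15153 protein-coding genes. *Pou5f1* followed alone (18.1, above 98.1%). Below it, the medians over all 3 labelling times were 5.01 for *Dppa4*, 4.55 for *Sall4*, 3.55 for *Utf1* and 2.22 for *Lin28a* (above 76.7%), and each gene's range overlapped that of the next. In *Tet2*-KO the medians were 40.5 for *Dppa5a*, 40.2 for *Nanog*, 22.3 for *Pou5f1*, 5.82 for *Sall4*, 4.12 for *Utf1*, 4.11 for *Dppa4* and 1.57 for *Lin28a*. There *Lin28a* stood below *Dppa4* without overlap and above 69.1% of coding genes. The order of *Dppa4*, *Sall4* and *Utf1* moved with labelling time in both genotypes. In WT their means were 7.90, 3.32 and 2.92 at 10 min and 4.36, 6.24 and 5.35 at 40 min, so that *Dppa4* was the highest of them at 10 min and the lowest at 40 min. In *Tet2*-KO they were 5.02, 4.37 and 3.87 at 10 min and 3.18, 7.23 and 5.94 at 40 min, with the same turn. The libraries of *Dppa4* overlapped those of *Sall4* and *Utf1* in *Tet2*-KO at 10 min and those of *Utf1* in WT at 40 min.

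The first question was how these genes stood among all nascent RNA of the same cells. As a share of gene reads, averaged over the labelling times, *Sall4*, *Utf1* and *Pou5f1* were higher in *Tet2*-KO and *Lin28a*, *Dppa4*, *Dppa5a* and *Nanog* were lower. The log2 fold changes ran from 0.33 for *Sall4* to -0.71 for *Lin28a*, which had 0.612 of its WT share. All 7 passed edgeR's quasi-likelihood test at an adjusted p under 0.05, 3 upward and 4 downward. Of 19910 genes tested, 24.6% were called higher and 32.0% lower, so being called is common in this comparison and the counts over the 7 genes say little beyond the direction of each. The median of the 7 was -0.12, against -0.04 over all genes.

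**Figure D1:**
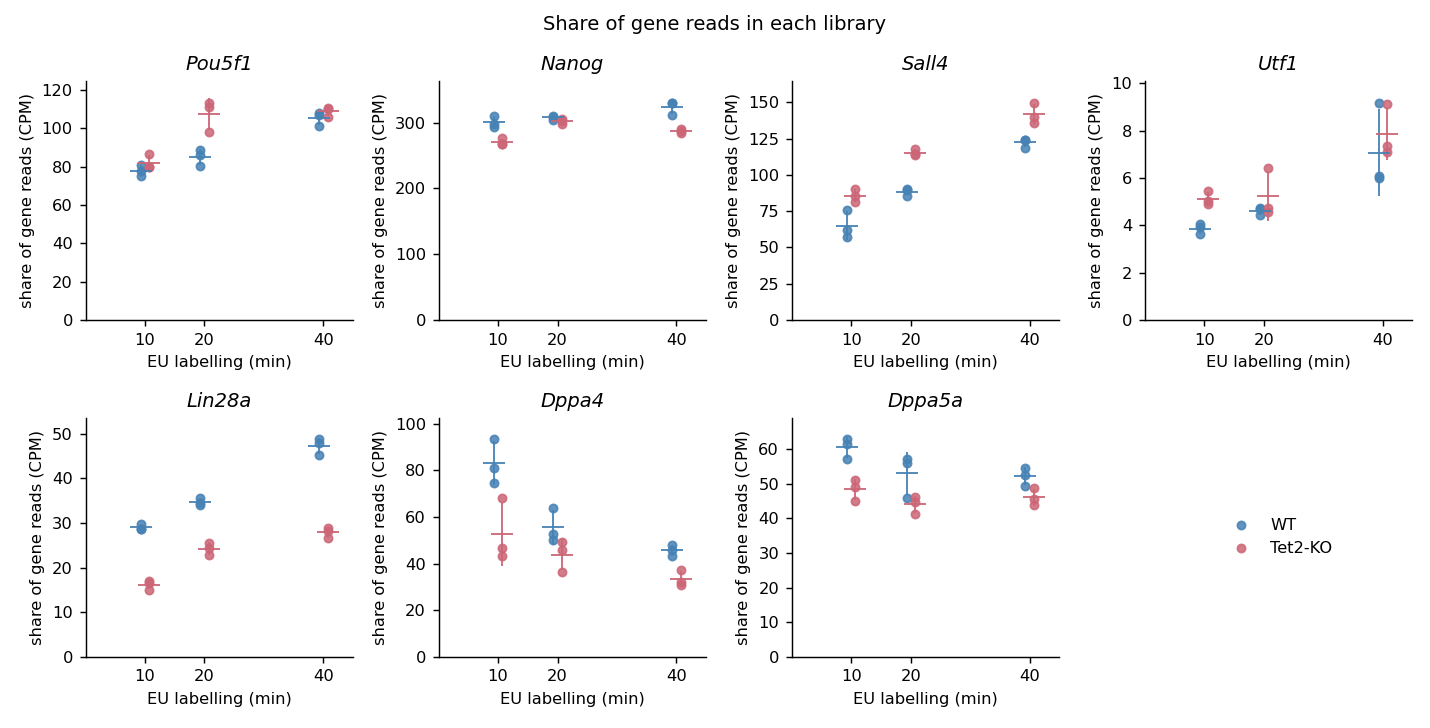
Share of gene reads in CPM, reads per 1000000 gene reads (y axis) of the 7 readable genes against EU labelling time in min (x axis), with a point for each of the 18 libraries, a bar at the mean of 3 and a line for ± 1 SD. At each time the 3 *Tet2*-KO libraries lie below the 3 WT libraries for *Lin28a* and *Dppa4* and above them for *Sall4*.

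Among the transcription factors, *Sall4* differed at all 3 labelling times. Its share at 10 min was 57.2, 76.1 and 62.0 CPM in WT and 81.6, 85.4 and 90.3 in *Tet2*-KO. At 20 min it was 90.1, 85.7 and 89.2 in WT and 113.7, 114.1 and 118.1 in *Tet2*-KO, and at 40 min 118.6, 124.2 and 124.2 in WT and 149.6, 135.6 and 140.0 in *Tet2*-KO. The *Tet2*-KO libraries were above all WT libraries of their time. The log2 fold change over the 3 times was 0.33 (SE 0.03, adjusted p = 3.75e-10), higher than for 82.9% of all genes.

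*Pou5f1* was higher in *Tet2*-KO at 20 min, where its share was 85.9, 88.4 and 80.1 CPM in WT and 97.7, 111.1 and 113.2 in *Tet2*-KO. At 10 min the libraries overlapped, with 77.4, 80.8 and 74.9 in WT and 79.8, 79.8 and 86.5 in *Tet2*-KO. They also overlapped at 40 min, with 107.7, 106.9 and 101.1 in WT and 110.4, 110.0 and 105.8 in *Tet2*-KO. The average log2 fold change was 0.16 (SE 0.03, adjusted p = 1.84e-05), made up of 0.08 at 10 min (adjusted p = 0.215), 0.34 at 20 min (adjusted p = 7.85e-07) and 0.05 at 40 min (adjusted p = 0.487).

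*Nanog* had the largest share of the 7 genes and the smallest difference averaged over the labelling times, though not at each time. Its share at 10 min was 292.9, 310.4 and 298.2 CPM in WT and 267.4, 275.9 and 267.3 in *Tet2*-KO, without overlap. At 20 min the values overlapped (304.3, 309.1 and 310.3 in WT, 305.9, 297.8 and 302.1 in *Tet2*-KO), and at 40 min they were apart again (312.1, 330.0 and 329.8 in WT, 290.9, 287.5 and 283.6 in *Tet2*-KO). The average was 0.921 of WT (95% confidence interval 0.900 to 0.943), a log2 fold change of -0.12 (SE 0.02, adjusted p = 5.70e-08). It passed the test at 10 min (-0.15, adjusted p = 1.51e-05) and 40 min (-0.17, adjusted p = 2.52e-06), and its value at 20 min was -0.03 (adjusted p = 0.443).

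*Utf1* was the most sparsely read, with 81 to 189 reads per library. Its share was 3.63 to 4.04 CPM in WT and 4.88 to 5.46 in *Tet2*-KO at 10 min, where the groups did not overlap. At 20 min the WT libraries ran from 4.43 to 4.75 and the *Tet2*-KO libraries from 4.55 to 6.42, and at 40 min from 5.98 to 9.18 and from 7.08 to 9.13, with overlap at both times. The average log2 fold change of 0.25 (SE 0.10, adjusted p = 0.0343) lost the call when any of 7 of the 18 libraries was left out, with values between 0.19 and 0.32 over all 18, and with no filter on low counts (adjusted p = 0.0561). The difference was 0.41 at 10 min (adjusted p = 0.0621), 0.18 at 20 min (adjusted p = 0.467) and 0.15 at 40 min (adjusted p = 0.496).

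The RNA-binding factor *Lin28a* had the strongest difference of the 7 genes. Its share was 29.7, 28.6 and 28.7 CPM in WT and 16.5, 17.0 and 15.1 in *Tet2*-KO at 10 min. The values were 34.5, 34.0 and 35.7 against 25.6, 22.9 and 24.3 at 20 min, and 47.9, 48.7 and 45.4 against 26.6, 28.2 and 28.9 at 40 min. All *Tet2*-KO libraries were below all WT libraries of the same time. The log2 fold change averaged -0.71 (SE 0.04, adjusted p = 7.55e-17) and was -0.84, -0.52 and -0.76 at 10, 20 and 40 min. Of all genes, 9.0% had a lower value.

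*Dppa4* was also lower, least firmly at 20 min. Its share was 80.9, 74.8 and 93.3 CPM in WT and 68.4, 46.7 and 43.2 in *Tet2*-KO at 10 min. It was 52.6, 50.1 and 64.0 against 49.3, 36.3 and 46.0 at 20 min, and 48.1, 43.3 and 45.9 against 30.8, 32.1 and 37.2 at 40 min. The groups did not overlap at any of the 3 times, and at 10 min the SDs were 9.43 in WT and 13.6 in *Tet2*-KO (n = 3 each). The log2 fold change averaged -0.48 (SE 0.07, adjusted p = 2.40e-07). At 20 min it was -0.34 (adjusted p = 0.0199), a call lost with DESeq2 (-0.31, adjusted p = 0.142) and without the third WT or the second *Tet2*-KO library of that time (-0.22 and adjusted p = 0.173 without the latter). In all 6 groups the library with the highest *Dppa4* share was the library with the highest percentage of reads on no gene, which was so in 0 to 3 of the 6 groups for the other 6 genes. The part of these reads in the *Dppa4* difference was not tested.

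*Dppa5a* was lower by less. Its share was 62.8, 61.5 and 57.1 CPM in WT and 45.1, 51.0 and 49.1 in *Tet2*-KO at 10 min. It was 56.0, 57.1 and 45.9 against 44.7, 46.0 and 41.3 at 20 min, where the third WT library reached into the range of *Tet2*-KO, and 49.3, 54.4 and 52.6 against 43.9, 48.8 and 45.6 at 40 min. The log2 fold change averaged -0.25 (SE 0.04, adjusted p = 1.49e-06), with -0.32 at 10 min (adjusted p = 1.91e-04), -0.27 at 20 min (adjusted p = 0.00246) and -0.18 at 40 min (adjusted p = 0.0438). The call at 40 min was lost with TMM (adjusted p = 0.0699), with DESeq2 (adjusted p = 0.0621) and without any of 4 of the 6 libraries of that time (-0.14 and adjusted p = 0.182 without the first *Tet2*-KO library).

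By labelling time, 1 of the 7 genes was called higher and 4 lower at 10 min, 2 higher and 3 lower at 20 min, and 1 higher and 4 lower at 40 min. The background at 10 min was 17.9% of all genes called higher and 27.1% called lower. At 20 min it was 17.6% and 20.7%, and for 40 min these shares were 18.9% and 19.6%. With TMM at 10 min, 3 of the 7 genes were higher, as *Pou5f1* (0.15, adjusted p = 0.0191) and *Utf1* (0.47, adjusted p = 0.0296) joined *Sall4*, and the split over all genes went from 3554 higher and 5389 lower to 4477 higher and 4262 lower. In bulk RNA, fewer cells that transcribe a gene and less RNA per cell cannot be told apart.

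The second question was how much newly made RNA of each gene there was for a fixed amount of spike-in. Per ERCC read, 6 of the 7 genes were higher in *Tet2*-KO and none was lower, while *Lin28a* was not called. The log2 fold changes were 1.06 for *Sall4*, 0.98 for *Utf1*, 0.89 for *Pou5f1*, 0.61 for *Nanog*, 0.47 for *Dppa5a*, 0.25 for *Dppa4* and 0.02 for *Lin28a*. Of all genes, 80.5% were called higher and 4.15% lower, and their median was 0.70, so 6 of 7 is near the background. *Sall4*, *Utf1* and *Pou5f1* stood above that median, and *Nanog*, *Dppa5a*, *Dppa4* and *Lin28a* below it, so that *Nanog*, *Dppa5a* and *Dppa4* were higher on this scale and lower as shares of gene reads.

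**Figure D2:**
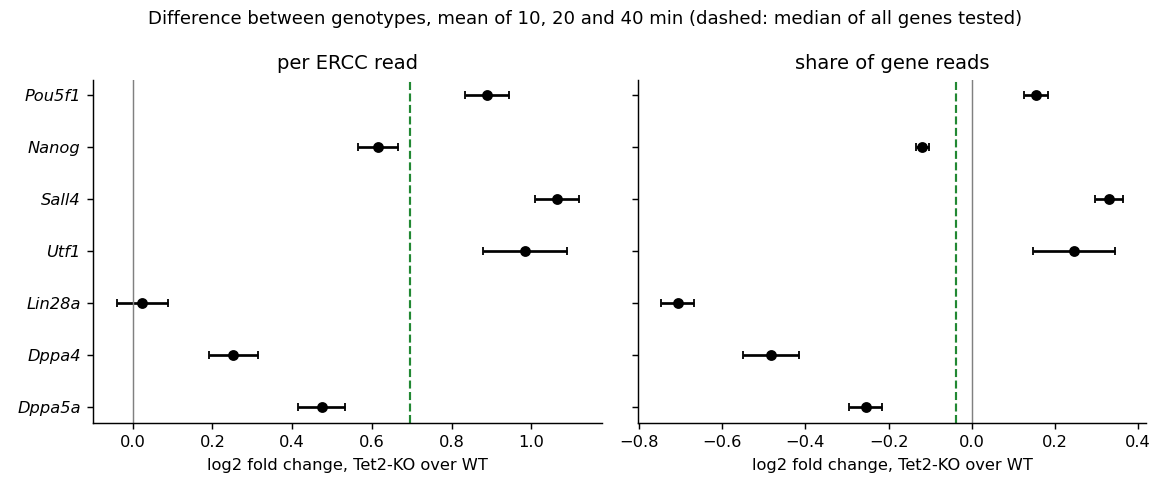
Log2 fold change of *Tet2*-KO over WT (x axis), averaged over the 3 labelling times, for each of the 7 genes per ERCC read (left) and as a share of gene reads (right). Points are fitted values, bars ± 1 SE, and the dashed line is the median of all 19910 genes, 0.70 on the left and -0.04 on the right; *Lin28a* lies at 0.02 and -0.71.

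*Lin28a* gave nearly the same values in both genotypes on this scale. It had 1.38, 1.45 and 1.23 reads per 1000 ERCC reads in WT and 1.58, 1.52 and 1.52 in *Tet2*-KO at 10 min, 4.98, 5.34 and 5.01 against 4.91, 4.93 and 5.13 at 20 min, and 11.7, 12.6 and 10.9 against 11.4, 10.3 and 11.5 at 40 min. The groups overlapped at 20 and 40 min. The average fold was 1.02 (95% confidence interval 0.922 to 1.12, adjusted p = 0.734), and its sign changed with the way the spike-in scale was computed. By time, the log2 fold change was 0.19 at 10 min (adjusted p = 0.122), -0.03 at 20 min (adjusted p = 0.819) and -0.08 at 40 min (adjusted p = 0.497). With the scale from the slope of ERCC CPM the value at 10 min was called (0.25, adjusted p = 0.0429).

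*Sall4* had 2.66, 3.87 and 2.65 reads per 1000 ERCC reads in WT and 7.83, 7.65 and 9.09 in *Tet2*-KO at 10 min. The values were 28.9, 32.1 and 29.7 against 64.2, 49.6 and 55.5 at 40 min. The lowest *Tet2*-KO library was far above the highest WT library at each of the 3 times. Its log2 fold change averaged 1.06 (SE 0.05, adjusted p = 1.40e-60) and was 1.42, 0.87 and 0.90 at the 3 times in turn, each above the median of all genes.

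*Pou5f1* had 3.60, 4.11 and 3.21 reads per 1000 ERCC reads in WT and 7.66, 7.15 and 8.71 in *Tet2*-KO at 10 min. At 40 min it had 26.2, 27.6 and 24.2 in WT and 47.4, 40.3 and 42.0 in *Tet2*-KO. The libraries did not overlap at any of the 3 times, and the log2 fold change averaged 0.89 (SE 0.05, adjusted p = 3.70e-46). For *Nanog*, the means at 40 min were 80.1 ± 4.79 in WT and 114 ± 9.92 in *Tet2*-KO (SD, n = 3 each), and the average log2 fold change was 0.61 (SE 0.05, adjusted p = 2.47e-29). *Utf1* was at 1.74 ± 0.399 in WT and 3.14 ± 0.675 in *Tet2*-KO at 40 min (SD, n = 3 each), with an average of 0.98 (SE 0.11, adjusted p = 1.88e-18).

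*Dppa5a* had means of 12.9 ± 1.07 reads per 1000 ERCC reads in WT and 18.3 ± 0.514 in *Tet2*-KO at 40 min (SD, n = 3 each), and its average log2 fold change was 0.47 (SE 0.06, adjusted p = 2.12e-14). *Dppa4* was at 11.3 ± 0.366 and 13.3 ± 1.49 at 40 min (SD, n = 3 each) and averaged 0.25 (SE 0.06, adjusted p = 5.08e-05). At 10 min its difference of 0.39 (adjusted p = 2.77e-04) rested on the first *Tet2*-KO library, and without it was 0.15 (adjusted p = 0.243). It was not called with DESeq2 (0.36, adjusted p = 0.0651). That library had 6.56 reads of *Dppa4* per 1000 ERCC reads, where the other two had 4.18 and 4.35. At 40 min the value of 0.23 (adjusted p = 0.0462) lost the call with the replicate number as a block (adjusted p = 0.0547), with TMM on the ERCC rows (adjusted p = 0.0725), with DESeq2 (adjusted p = 0.354), with no filter on low counts (adjusted p = 0.0719) and without any of 7 libraries (down to 0.14, adjusted p = 0.296).

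Called by time, 6 of the 7 genes were higher and 0 lower at 10 min, where 79.0% of all genes were higher and 2.10% lower. At 20 min 4 were higher (background 53.7%) and 0 lower (4.86%), and *Dppa4* (0.14, adjusted p = 0.242) and *Dppa5a* (0.21, adjusted p = 0.0640) joined *Lin28a* among those not called. *Dppa5a* at 20 min was called with the scale from the slope of ERCC CPM (0.26, adjusted p = 0.0357), from the 6 libraries of that time alone (0.21, adjusted p = 0.0399) and without any of 4 libraries (0.32 and adjusted p = 0.0112 without the second WT library of 20 min). *Utf1* at 20 min lost its call without the second *Tet2*-KO library (0.46, adjusted p = 0.0608). At 40 min 6 were higher (68.2%) and 0 lower (2.84%). The difference at 20 min was smaller over all genes as well, with a median of 0.45 against 0.96 at 10 min and 0.67 at 40 min. An offset of a whole library moves every gene on this scale by the same factor. The values of the 7 genes are thus not separate measurements of it. The test pools spread over genes, which does not average out such an offset. P-values per ERCC read, that of *Sox2ot* included, therefore overstate the certainty that the few dishes of each group give. The values of single libraries do not rest on this pooling.

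Transcription rates were taken as the slope of the spike-in-calibrated level on labelling time, from 9 libraries of each genotype, and are given as a description without a test. They were not divided by gene length, so they do not rank the genes per kilobase. Undivided, *Nanog* had the highest rate, 2.13 ± 0.154 reads per 1000 ERCC reads per min in WT and 2.90 ± 0.178 in *Tet2*-KO (± SE of the slope). *Sall4* went from 0.899 ± 0.0298 to 1.61 ± 0.108, *Pou5f1* from 0.736 ± 0.0375 to 1.16 ± 0.0779, and *Utf1* from 0.0521 ± 0.00576 to 0.0904 ± 0.0112. *Dppa5a* went from 0.323 ± 0.0337 to 0.456 ± 0.0137, *Dppa4* from 0.235 ± 0.0281 to 0.265 ± 0.0364 and *Lin28a* from 0.343 ± 0.0136 to 0.315 ± 0.0102. The ratio of *Tet2*-KO to WT was thus 1.79 for *Sall4*, 1.73 for *Utf1*, 1.58 for *Pou5f1*, 1.41 for *Dppa5a*, 1.36 for *Nanog*, 1.13 for *Dppa4* and 0.920 for *Lin28a*, beside 1.55 for the sum of all genes. From 10 and 20 min only, the ratio was under 1 for *Dppa5a* (0.89, against 1.82 from 20 and 40 min) and for *Dppa4* (0.923). The slopes of *Dppa4* met the axis at 2.28 and 2.90 reads per 1000 ERCC reads at 0 min in WT and *Tet2*-KO, and those of *Sall4* at -5.56 and -8.15, so that the lines of both genes missed the origin, on opposite sides. This was not particular to them. *Pou5f1* (-3.11 and -2.66), *Lin28a* (-1.95 and -1.50), *Utf1* (-0.349 and -0.538) and *Nanog* (-3.30 and -0.228) also lay below 0, and *Dppa5a* above it (0.304 and 0.02). No SE was computed for these crossing points, so small ones, such as those of *Nanog* and *Dppa5a* in *Tet2*-KO, do not fix a side of 0. The sum of all genes met the axis at -3.175 in WT and -0.163 in *Tet2*-KO, in reads per ERCC read.

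**Figure D3:**
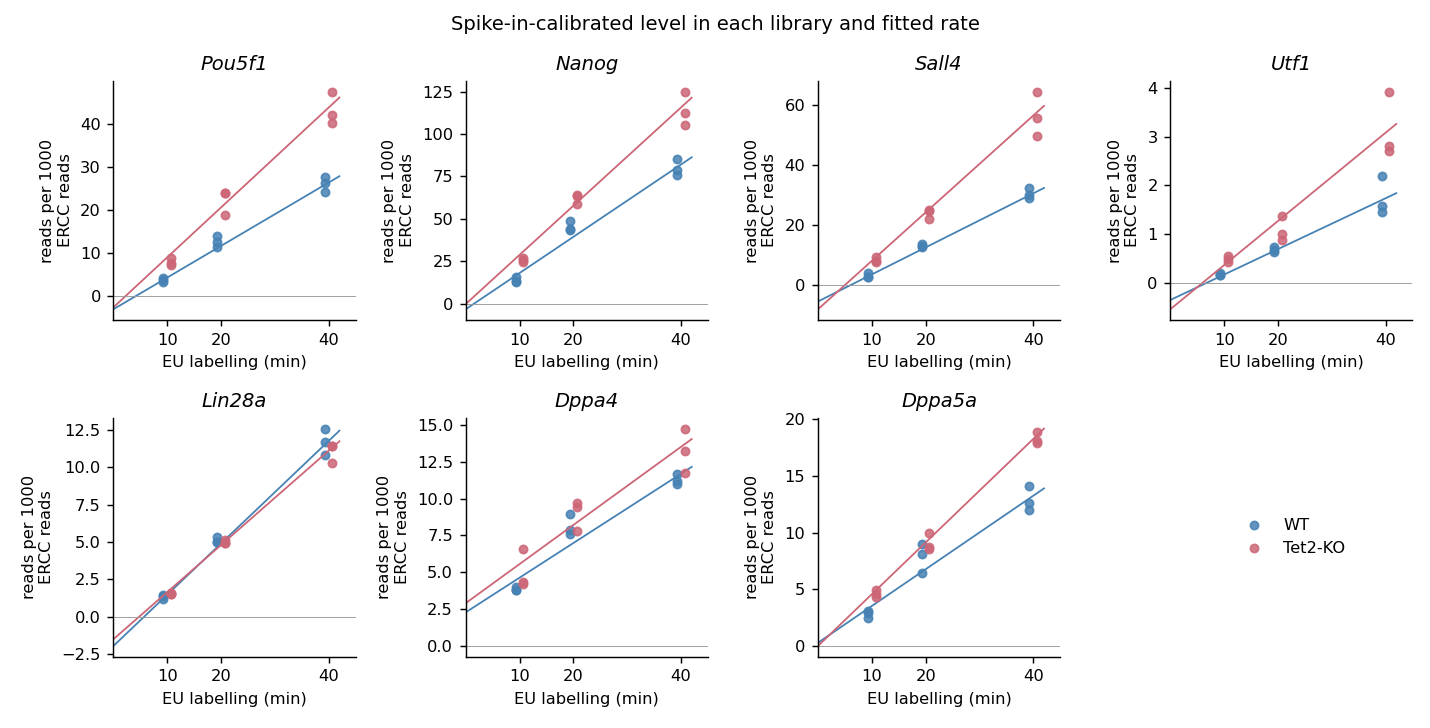
Reads per 1000 ERCC reads (y axis) against EU labelling time in min (x axis) in each of the 18 libraries, with the least-squares line of each genotype extended to 0 min. The lines of *Sall4*, *Pou5f1* and *Utf1* part most, those of *Lin28a* nearly coincide (slopes of 0.343 for WT and 0.315 for *Tet2*-KO), and those of *Dppa4* meet 0 min above 0.

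The third question was how the genes moved within the nascent pool as labelling went on. From 10 to 40 min the share of *Sall4*, *Utf1*, *Lin28a*, *Pou5f1* and *Nanog* rose in both genotypes, and that of *Dppa4* fell in both. In WT the log2 changes were 0.91 (SE 0.06) for *Sall4*, 0.87 (SE 0.17) for *Utf1*, 0.71 (SE 0.06) for *Lin28a*, 0.44 (SE 0.05) for *Pou5f1*, 0.11 (SE 0.03) for *Nanog*, -0.22 (SE 0.07) for *Dppa5a* and -0.86 (SE 0.11) for *Dppa4*. All 7 passed the test, 5 upward (background 16.1%) and 2 downward (29.5%), with adjusted p-values from 2.96e-14 for *Sall4* to 0.00870 for *Dppa5a*. *Sall4*, *Utf1* and *Lin28a* rose more than 97.8%, 97.6% and 96.5% of all genes, whose median was -0.14. The fall of *Dppa5a* was not called without the first WT library of 40 min (-0.18, adjusted p = 0.0626) or with TMM (-0.11, adjusted p = 0.183), under which all genes split into 4546 higher and 4383 lower instead of 3196 and 5875.

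In *Tet2*-KO the changes were 0.73 (SE 0.06) for *Sall4*, 0.62 (SE 0.17) for *Utf1*, 0.79 (SE 0.07) for *Lin28a*, 0.41 (SE 0.05) for *Pou5f1*, 0.09 (SE 0.03) for *Nanog*, -0.07 (SE 0.07) for *Dppa5a* and -0.67 (SE 0.12) for *Dppa4*. The first 5 were called higher (background 16.5%) and *Dppa4* lower (20.0%), and *Dppa5a* was not called (adjusted p = 0.491).

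**Figure D4:**
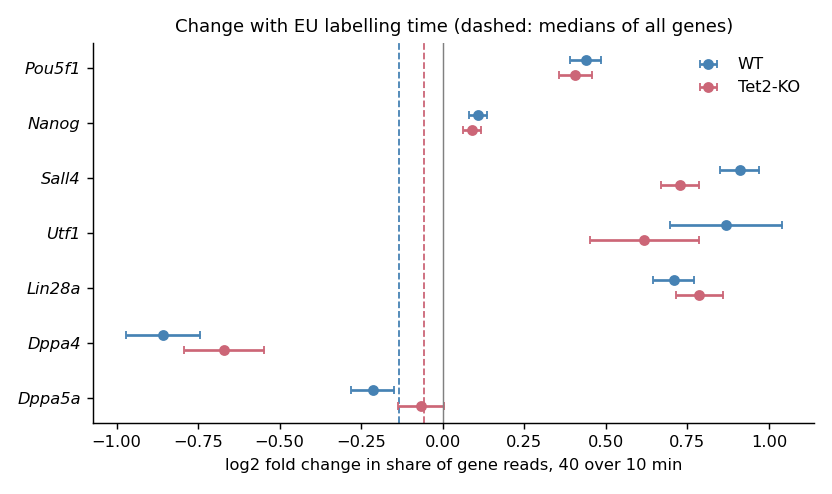
Log2 fold change in share of gene reads from 10 to 40 min (x axis) for the 7 genes, WT in blue and *Tet2*-KO in red, with bars of ± 1 SE and dashed lines at the medians of all genes (-0.14 in WT, -0.06 in *Tet2*-KO). *Sall4*, *Utf1*, *Lin28a*, *Pou5f1* and *Nanog* lie to the right of 0 in both genotypes and *Dppa4* lies at -0.86 and -0.67.

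The genotype difference in share was not shown to change between 10 and 40 min for any of the genes. In the test of that change 0 of 7 were called higher or lower by edgeR, with TMM and with DESeq2, where 5.89% of all genes were called higher and 3.36% lower, and 1 of the 7 had an unadjusted p under 0.05. This was *Sall4* (-0.18, SE 0.08, adjusted p = 0.181), and without the second WT library at 10 min, whose share was 76.1 beside 57.2 and 62.0, its value was -0.31 (adjusted p = 0.00177). *Dppa4* had 0.19 (adjusted p = 0.565), or 0.43 (adjusted p = 0.0399) without the first *Tet2*-KO library at 10 min. The split over all genes reversed with TMM, from 1173 higher and 668 lower to 774 higher and 1219 lower.

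The likeness of patterns was measured as the root mean square difference of centred log2 shares over the 18 libraries, among 15152 protein-coding genes. The nearest pair of members was *Nanog* and *Dppa5a* (0.168). The closest member to *Pou5f1* was *Nanog* (0.204), to *Sall4* it was *Pou5f1* (0.213) and to *Utf1* it was *Sall4* (0.216). Set against a flat pattern, the difference was 0.0853 for *Nanog*, 0.171 for *Dppa5a*, 0.209 for *Pou5f1*, 0.386 for *Sall4* and 0.380 for *Utf1*. The values of 0.168 and 0.204 are thus near those of *Dppa5a* and *Pou5f1* from a flat pattern. They do not show that the shares of these genes moved together. Among all genes, *Sall4* was in place 19 seen from *Utf1*, and *Pou5f1* in place 134 seen from *Sall4*. For the other 5 genes the closest member was at place 1377 or farther. The single closest genes were *Kifc5b* for *Pou5f1* (0.0682), which is also on chromosome 17, *Rab10* for *Nanog* (0.0388), *Cenpp* for *Sall4* (0.115), *Serp1* for *Utf1* (0.146), *Btg2* for *Lin28a* (0.117), *Sgtb* for *Dppa4* (0.110) and *E2f7* for *Dppa5a* (0.0817). The libraries share their depth and total, so these distances describe patterns only.

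Related genes were read from lists chosen by name. Of 18 partner factors of the network, 6 were higher and 12 lower in share of gene reads, with a median of -0.09, where 24.6% of all genes were higher and 32.0% lower with a median of -0.04. Per ERCC read 16 of the 18 were higher and 1 lower, with a median of 0.64, where 80.5% of all genes were higher and 4.15% lower with a median of 0.70. The counts for the other lists below are read against the same shares of all genes. The largest fall was that of *Zfp42*, which encodes REX1, a marker of naive cells (-2.25, SE 0.02, adjusted p = 7.12e-41), and it was lower per ERCC read as well (-1.52). *Klf4*, a Kruppel-like factor of the naive state, had -0.64 in share (adjusted p = 9.80e-22) and 0.09 per ERCC read (adjusted p = 0.0846), and *Tbx3*, a T-box factor, and *Prdm14*, a repressor of differentiation genes, were higher (0.29 and 0.26).

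Of 16 target genes of the network, 4 were higher and 7 lower in share, with a median of -0.03. *Spry4*, a feedback inhibitor of receptor tyrosine kinase signalling, had -1.55 (adjusted p = 3.42e-24) and *Lefty1*, an inhibitor of Nodal, -1.16 (adjusted p = 1.64e-13). *Mybl2*, a MYB factor of the cell cycle, and *Jarid2*, a component of PRC2, had 0.29 and 0.22. Per ERCC read 11 were higher and 3 lower.

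Among paralogs of the members, 4 of 11 tested (of 13 listed) were higher in share and 3 lower. *Sox21*, an HMG-box relative of *Sox2*, had the largest difference of the list (2.22, SE 0.12, adjusted p = 8.91e-17), from a mean of 31.89 reads in WT to 133.78 in *Tet2*-KO. *Sall3*, a relative of *Sall4*, was higher too (0.54, adjusted p = 2.02e-05). *Lin28b* was lower in share like *Lin28a* (-0.44, SE 0.03, adjusted p = 2.10e-15) but higher per ERCC read (0.29), and *Dppa3*, read at 59.22 and 30.44, had -0.84 (adjusted p = 8.34e-05). Per ERCC read, 9 were higher and 0 lower. Of the 10 genes of the LIN28 and let-7 axis, 6 were higher and 4 lower in share, with a median of 0.06. *Hmga2*, a chromatin protein and classic let-7 target, rose by 0.96 (SE 0.02, adjusted p = 4.53e-27) and *Mycn* by 0.35, while *Dis3l2*, the exonuclease for tailed let-7 precursors, had -0.31 in share. All 10 were higher per ERCC read, as were 80.5% of all genes.

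**Figure D5:**
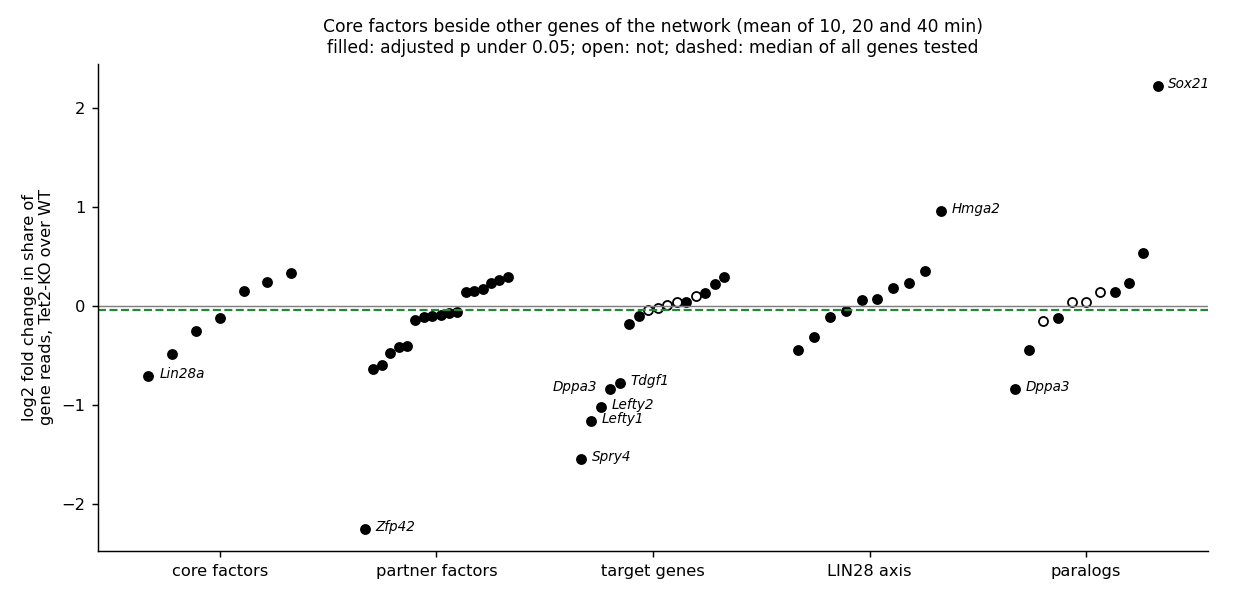
Log2 fold change in share of gene reads, *Tet2*-KO over WT averaged over labelling times (y axis), for every tested gene of the 5 lists (x axis), ordered within a list, with filled points for an adjusted p under 0.05 and a dashed line at the median of all genes (-0.04). *Zfp42* (-2.25) and *Sox21* (2.22) lie farthest from 0, outside the range of the 7 core factors (-0.71 to 0.33).

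Markers of other cell types were few in reads beside the 18 partner factors, which summed to 5261 to 6331 CPM. Each list of such markers held 10 genes, and no sum was divided by gene length. The differences given for these markers are in share of gene reads. The 10 primitive endoderm genes summed to 238.2 to 309.6 CPM in WT and 219.5 to 298.9 in *Tet2*-KO, mostly through *Lama1*. Of 8 tested 1 was higher in share (*Col4a1*, 0.26) and 3 lower. The lower ones were *Hnf4a* (-0.95), *Gata4* (-0.42, with 0.31 per ERCC read) and *Lama1* (-0.09). *Gata6* had 0.46 (adjusted p = 0.0821) and *Sox7* 0.41 (adjusted p = 0.375). The trophectoderm genes summed to 135.1 to 163.7 and 116.7 to 128.7, mostly through *Tead4* (-0.46, mean of 2634.11 reads in WT and 1736.11 in *Tet2*-KO). Of 8 tested, 1 was higher (*Gata3*, 1.49) and 3 lower (*Tead4*, *Krt7*, -0.77, and *Eomes*, -0.66), with *Elf5* at 0.77 (adjusted p = 0.154). *Krt7* and *Elf5* were sparsely read, with means of 14.67 and 4.89 reads in WT and 7.78 and 7.44 in *Tet2*-KO. *Cdx2*, which defines trophectoderm, had at most 5 reads in any library. Genes of neural and mesodermal cells summed to 35.3 to 51.0 and 27.3 to 34.2, mostly through *Nes* (mean of 853.89 reads in WT and 538.44 in *Tet2*-KO). Of 4 tested 1 was lower (*Nes*, -0.53), with *Sox1* at 0 reads throughout, and *Kdr* (0.37), *Tbx6* (-0.52) and *Pax6* (-0.62) not called. Feeder fibroblast genes summed to 23.1 to 46.9 and 16.7 to 27.6, with 2 of 7 higher (*Col3a1*, 1.05, and *Col1a1*, 0.40) and 2 lower (*Pdgfrb*, -1.57, and *Fbn1*, -0.66), and *Dcn* and *Lum* at no more than 6 reads and 1 read. *Col3a1* had means of only 14.67 reads in WT and 16.67 in *Tet2*-KO, so its value rests on few reads. The part of such cells in the differences of the core factors was not tested.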

How the data were processed

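The 18 libraries held 3 dishes for each genotype and labelling time. The authors trimmed the reads (Trimmomatic 0.39), aligned them to mm10 and the ERCC sequences (HISAT2 2.2.1) and deposited raw counts per gene from HTSeq 0.12.4. Its feature type, strand setting and overlap mode are not given in the sources used here. Reads on no gene (13.16% to 16.88%), on several (2.32% to 2.5%) or without a unique alignment (5.24% to 5.99%) were left out.

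After filterByExpr (minimum count 10), edgeR 4.0.16 in R 4.3.3 fitted its quasi-likelihood model to the 6 groups, once with ERCC totals and once with gene totals as the library size. P-values were adjusted by Benjamini-Hochberg over all genes, and calls used 0.05. Each SE was derived from the log2 fold change and its F statistic. Names and positions came from GENCODE M21 (54409 of 54446 identifiers). Alternatives were DESeq2 1.42.0, TMM, other spike-in scales, no filter, a replicate block and each library left out. In simulated counts of 19910 genes for the average share contrast, 96 of 100 genes changed 1.5-fold and 100 of 100 changed 2-fold were recovered, with 15 unchanged genes called. Only these 200 genes were changed, equally up and down, and they were drawn from the better-read genes. In the data 24.6% of genes were called higher and 32.0% lower. The simulation therefore does not give the error rate where so many genes differ. Same-numbered libraries did not deviate together (45 correlations, -0.072 to 0.064). The limit of 3 reads covers counting error only. The genes described and all lists were chosen with earlier results of these data known. Named besides the 8 genes are those that overlap or resemble them, the 2 highest and 2 lowest of each list, the genes that mark a cell type, and the nearest pattern of each.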

Additional observations from a re-analysis of the deposited data

How the results depend on the processing

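Of 77 results for single genes, 60 kept their direction and call under every alternative, and the block on replicate number changed 1 of the 77. Where a value below moved, the cause was not tested. For *Lin28a* per ERCC read the average was -0.034 with TMM on the ERCC rows and -0.0073 with DESeq2, and the value at 20 min was 0.013 with the scale from the slope of ERCC CPM. For *Nanog* at 20 min in share the value was 0.0083 with TMM and 8e-04 with DESeq2. With TMM or DESeq2, 3 of the 7 genes were higher in share at 10 min, and 1 instead of 2 fell from 10 to 40 min in WT. With TMM and DESeq2, 774 and 737 genes were called higher and 1219 and 1261 lower in the test of the change between 10 and 40 min, where 1 of the 7 genes (*Sall4*) was lower without a filter on low counts. Leaving out 1 library gave 1 to 2 of the 7 genes higher at 10 min, 1 to 2 falling with time in WT, 0 to 1 higher and 0 to 1 lower in the change between times, and -0.06 to 0.0087 for *Pou5f1* in the latter.

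Rate ratios from 10 and 20 min only were 1.16 for *Nanog*, 1.57 for *Sall4*, 1.19 for *Utf1*, 0.923 for *Dppa4* and 0.89 for *Dppa5a*, and from 20 and 40 min only 1.5 for *Nanog* and 1.82 for *Dppa5a*. Leaving out 1 library gave 1.64 to 1.92 for *Sall4* and 1.46 to 2.05 for *Utf1*. With the replicate number as a block, the *Dppa4* difference per ERCC read at 40 min was 0.23 (edgeR adjusted p = 0.0547). Depth limits *Utf1*, with 81 to 189 reads per library, most.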
